A study of Mus musculus with 12 samples.

Results

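The genes examined were 53 genes of the interferon response and of antigen presentation on major histocompatibility complex (MHC) class I, chosen by their symbols from a fixed list of interferon-stimulated genes, interferon regulatory factors (IRF), signal transducers (STAT) and class I presentation genes. All 53 were found among the 23183 genes measured. Interferons are secreted signals of antiviral defense. Type I interferons bind a receptor pair whose kinases JAK1 and TYK2 phosphorylate STAT factors, and these join IRF9 in a complex that binds the interferon-stimulated response element (ISRE) of target promoters. The products include nucleic acid sensors that close the loop through IRF3 and IRF7, effectors that block viral entry or translation, and the proteasome subunits, peptide transporter and chains that load class I molecules. In the brain, microglia, endothelial cells and astrocytes are known to carry much of this response.

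Male C57BL/6 mice received a single X-ray dose of 10 Gy to the whole brain (IR) or a sham exposure of 0 Gy (Con), and RNA from their cortex and hippocampus was sequenced 3 months later. The mice were bought at 7 weeks of age and kept for 1 week before the exposure. There were 12 libraries, 3 of each exposure from each region. Whether the cortex and hippocampus libraries of a number came from 1 mouse is not stated, nor whether mice were pooled, so the p values measure the spread between libraries. The comparison asks which genes of the interferon response differ in each region long after cranial irradiation.

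Expression was given as FPKM (fragments scaled to the length of the transcript and to sequencing depth), summing to 359773 to 393447 per library, and the depth in reads is unknown. From the steps between the lowest values, depth relative to Con 1 of the tissue was 1 to 1.01 in Con and 1.01 to 1.05 in IR in the cortex, and 1 to 1.06 and 1.08 to 1.13 in the hippocampus. The 5 genes that mark the cortex summed to 175 to 234 FPKM in the cortex and 37.1 to 40.7 FPKM in the hippocampus, and the 5 that mark the hippocampus to 4.36 to 10.4 and 93.9 to 113 FPKM, as labelled. Some libraries stood apart. Choroid plexus genes summed to 439 FPKM in cortex IR 2, 1061 FPKM in hippocampus Con 2 and 1650 FPKM in hippocampus IR 1, against 4.50 to 66.0 FPKM in the other 9. A list of 6 genes of natural killer (NK) and cytotoxic cells summed to 20.9 FPKM in hippocampus Con 1 and to 0 to 0.469 FPKM in the other 11. Results that rest on these libraries are given with and without them.

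In sham mice the class I chains were among the most abundant of the 53 (FPKM, a level per transcript length, mean ± SD, n = 3). *B2m*, the light chain of every class I molecule, stood at 82.5 ± 10.9 FPKM in the cortex and 67.1 ± 2.14 FPKM in the hippocampus. The heavy chain gene *H2-D1* followed at 23.4 ± 3.54 and 19.5 ± 5.09 FPKM, and *H2-K1* at 13.5 ± 2.88 and 15.1 ± 5.75 FPKM. *Ifi27*, which codes for a mitochondrial membrane protein induced by type I interferon, reached 16.4 ± 1.09 and 25.7 ± 1.48 FPKM. Apart from these, *Ifitm3*, *Ifitm2* and *Irf2* were at 10 FPKM or more in the cortex and *Ifitm3* and *Irf2* in the hippocampus. The Con means of *Ifitm3*, *Ifitm2* and *Irf2* in the cortex (11.3, 11.3 and 11.1 FPKM) lay closer together than the SD of *Ifitm3* (11.3 ± 1.75).

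The classical antiviral effectors were scarce in both tissues. Of the 53 genes, 14 had a Con mean under 0.5 FPKM in cortical and 16 in hippocampal tissue. Genes were tested where 3 or more of a tissue's 6 libraries reached 0.5 FPKM. Of the members, 40 cortical and 39 hippocampal ones passed, none of them through libraries of 1 group alone. In neither tissue could 12 members be tested, namely the sensors *Dhx58* and *Zbp1*, the oligoadenylate synthetase genes *Oas1a*, *Oas1b*, *Oas2*, *Oas3* and *Oasl1*, the effectors *Mx1*, *Rsad2* and *Ifi44*, the ISG15 protease *Usp18* and the chemokine *Cxcl10*. *Isg20* was also untested in the cortex, and *Mx2* and *Parp14* in the hippocampus. No untested gene was above 0.801 FPKM in any library of that tissue. Of the interferons themselves, *Ifna4* and *Ifnk* were listed at 0 in all 12 libraries, *Ifnb1* was above 0 only in cortex Con 1 (0.0998 FPKM) and *Ifng* only in hippocampus Con 1 (0.118 FPKM) and IR 1 (0.101 FPKM).

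In the cortex, 10 of the 40 tested members were higher and 1 was lower in IR at an unadjusted p under 0.05 (limma on log2(FPKM + 1)), where the same test gave 8.16% of all 14065 genes as higher and 5.94% as lower. This unadjusted threshold is the test meant below. None had a Benjamini-Hochberg adjusted p under 0.05 (lowest 0.114), against 0.725% of all genes. The 10 higher genes were *Irf3*, *Irf9*, *Irf2*, *Irf7*, *Isg15*, *Ifitm3*, *Ifitm2*, *Ifi27*, *Rtp4* and *Oasl2*, and the lower gene was *Psmb8*. The mean log2 level was higher in IR in 33 of the 40 members and in 50.5% of all genes. The median log2 fold change was 0.067 over the members and 0.0016 over all genes. These counts leaned on single libraries. Without IR 2, 7 members were past the unadjusted p, against 11.7% of all genes in that fit. Without Con 2 the members higher in IR numbered 23, against 50.4% of all genes, and their median log2 fold change was 0.013. Without Con 1, 14 members were past it, against 13.2% of all genes in that fit, and 1, *Ifitm3*, reached an adjusted p of 0.0375.

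In the hippocampus, 8 of the 39 tested members were higher and 1 was lower at an unadjusted p under 0.05, against 7.06% and 6.89% of all 14043 genes. None had an adjusted p under 0.05 in limma (lowest 0.161), against 0.0285% of all genes. The higher genes were *Bst2*, *Irf3*, *Irf9*, *Lgals3bp*, *Ifit1*, *Ifitm2*, *Ifi27* and *Irgm1*, and the lower gene was *Ifit2*. The mean log2 level was higher in IR in 31 of the 39 and in 47.3% of all genes, with a median log2 fold change of 0.11 over the members and -0.010 over all genes. Without Con 3, *Bst2* and *Irf9* reached adjusted p values of 0.0242 and 0.0243, but in that fit 6.33% of all genes had an adjusted p under 0.05 and 26% an unadjusted p under 0.05. The same genes had an adjusted p under 0.05 in the fit of all 12 libraries, as did 0.527% of all genes. Without Con 2 and IR 1, both rich in choroid plexus genes, 9 members were past the unadjusted p, against 5.59% of all genes in that fit, without *Ifitm2* and *Ifit2*.

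The study's criterion was a fold change of 1.5 with a p of 0.05. At an unadjusted p, *Isg15* alone met it in the cortex and *Bst2* and *Irf9* in the hippocampus, where 0.483% and 0.527% of all genes did. By the ratio of mean FPKM, which is not damped by the pseudocount, *Irf7* joined in the cortex (ratio 1.5), and *Lgals3bp* and *Ifit1* in the hippocampus (ratios 1.53 and 1.90). *Isg15* missed the fold without cortex Con 3 or IR 1, and *Irf9* missed it without hippocampus Con 1 or IR 1. Con and IR libraries did not overlap in 12 cortex members, against 20.3% of all genes, with 10 higher in IR (11.2% of all genes) and 2 lower (9.09%). They did not overlap in 11 hippocampus members, against 19.8%, with 9 higher (10.5%) and 2 lower (9.36%).

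**Figure D1:**
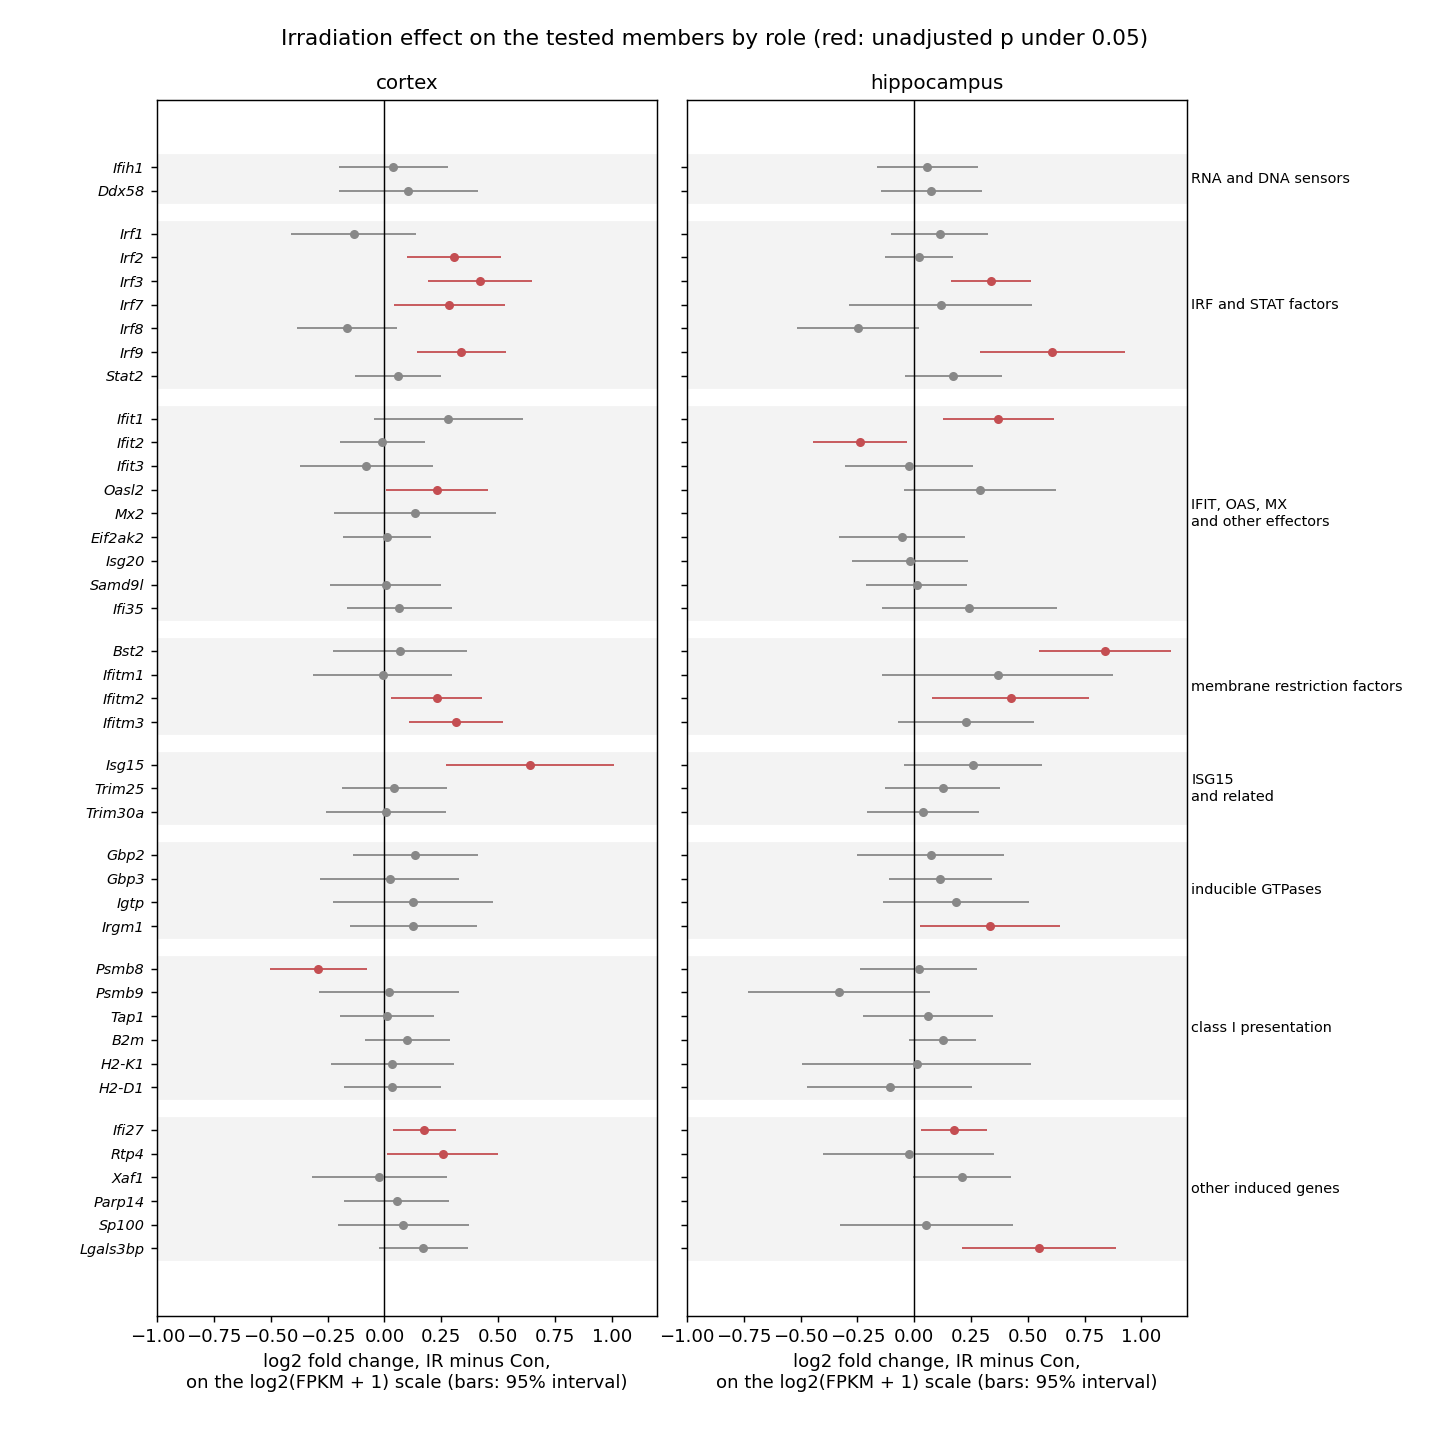
Log2 fold change (IR minus Con, log2(FPKM + 1) scale) of each tested member in the cortex and the hippocampus, ordered by role, with 95% intervals from limma. Red points, 11 cortical and 9 hippocampal, are past the unadjusted threshold of 0.05, and *Bst2* in the hippocampus lies farthest from 0 at 0.84.

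Genes of other cell types moved with the groups. A list of 10 homeostatic microglia genes summed to 127 to 134 FPKM in Con and 91.2 to 126 FPKM in IR in the cortex, and to 126 to 137 and 94.3 to 104 FPKM in the hippocampus. The mean of 9 of the 10 was lower in IR in each tissue, and *Csf1r*, the receptor on which microglia depend, was at 20.5 to 24.1 FPKM in Con and 11.7 to 12.2 FPKM in IR in the hippocampus. The 7 endothelial genes went the other way, with sums of 81.4 to 92.9 FPKM in Con and 99.9 to 112 FPKM in IR in the cortex, and 74.7 to 77.7 and 86.8 to 90.4 FPKM in the hippocampus, with 6 of the 7 higher in IR in each. In the cortex, 5 oligodendrocyte genes also summed to 968 to 1198 FPKM in Con and 1215 to 1472 FPKM in IR, and 5 genes of border macrophages to 2.81 to 2.98 and 1.62 to 2.38 FPKM. In the hippocampus these went differently, with oligodendrocyte sums of 997 to 1211 FPKM in Con and 934 to 1192 FPKM in IR, 2 of the 5 past the unadjusted p and lower, and border macrophage sums of 0.923 to 2.22 and 2.11 to 4.05 FPKM. All 5 astrocyte genes had lower means in IR there, with sums of 391 to 483 and 375 to 411 FPKM, and 3 were past the unadjusted p. All 5 meningeal fibroblast genes had higher means there, with sums of 13.1 to 27.4 and 24.1 to 35.2 FPKM, and 1 was past it. Of the 5 hippocampus genes, 2 were past it there and higher, *Prox1* at 14.4 to 16.7 FPKM in Con and 18.8 to 21.1 FPKM in IR and *Lct* at 7.60 to 10.6 and 11.9 to 13.2 FPKM. In bulk tissue, fewer cells of a type and less RNA per cell cannot be told apart. None of the microglia and endothelial genes was at 0 in any library, and the part of these cell types in the differences of the interferon genes was not tested.

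The promoters of the genes past the unadjusted p were examined for the ISRE. RefSeq promoters of GRCm38.p6, from position -250 to position 50 around the transcription start (the first base is position 1), were at hand for 43 of the 53 members. The ISRE was searched on both strands as GAAA, any 2 bases and GAAA, where copies may overlap, and occurred in 21 of the 43 and in 3.99% of 27025 genes with a promoter of this length. The GAS motif TTCNNNGAA, an element of the response to interferon gamma that reads the same on both strands, occurred in 12 of the 43 and in 9.55% of all genes. The ISRE letters were in 7 of the 14 members past the unadjusted p in a tissue and in 14 of the 29 others. A match in these letters is a description of the sequence and not a binding site. The stretches of 6 of the 7 follow, 5′ to 3′ on the strand of the gene, with each match in capitals, and the seventh, *Ifitm3*, had its matches after the start site.
*Bst2*, chr8:71537557-71537632, minus strand: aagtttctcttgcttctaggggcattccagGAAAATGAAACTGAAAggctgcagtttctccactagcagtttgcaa
*Isg15*, chr4:156200845-156200926, minus strand: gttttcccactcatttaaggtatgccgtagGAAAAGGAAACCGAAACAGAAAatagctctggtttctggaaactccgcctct
*Ifit1*, chr19:34640755-34640843, plus strand: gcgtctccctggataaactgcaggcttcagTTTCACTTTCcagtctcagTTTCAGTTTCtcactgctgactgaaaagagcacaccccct
*Ifitm2*, chr7:140955968-140956037, minus strand: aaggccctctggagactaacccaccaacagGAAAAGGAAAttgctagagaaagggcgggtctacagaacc
*Irf2*, chr8:46739495-46739543, plus strand: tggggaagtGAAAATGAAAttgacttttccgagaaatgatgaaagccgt
*Irgm1*, chr11:48871421-48871480, minus strand: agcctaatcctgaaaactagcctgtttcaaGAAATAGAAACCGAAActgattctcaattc

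*Bst2*, *Isg15* and *Irgm1* held overlapping copies of the motif, so that GAAA recurred every 6 bases, and *Ifit1* held a pair on the opposite strand, read here as TTTC, any 2 bases and TTTC. The first copy began at position -130 in *Bst2*, -78 in *Isg15*, -104 in *Ifit1*, -46 in *Ifitm2*, -30 in *Irgm1* and -241 in *Irf2*. The promoters of *Irf3*, *Irf9*, *Irf7*, *Lgals3bp*, *Oasl2*, *Psmb8* and *Ifit2* held no match to these letters in this window.

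The 7 IRF and STAT factors held 4 of the 11 members past the unadjusted p in the cortex. All 7 were tested in both tissues. In the cortex the 4 were higher, none was lower and 3 were not past the test, and in the hippocampus 2 were higher and 5 were not past it. Over all genes, 8.16% were higher and 5.94% lower in the cortex, and 7.06% and 6.89% in the hippocampus. The same shares apply to the counts of each role group below. *Irf3* (chr7:44997648-45002848 on GRCm38), the factor that nucleic acid sensors activate to switch on interferon genes, was at 6.24, 5.94 and 4.73 FPKM in cortex Con 1 to 3 and 8.66, 7.73 and 7.16 FPKM in IR 1 to 3. Its hippocampal values were 5.80, 5.39 and 4.99 FPKM in Con and 7.09, 7.29 and 6.85 FPKM in IR. Every IR library lay above every Con library in both tissues. The log2 fold change was 0.42 (SE 0.10, adjusted p = 0.114 by limma) in the cortex and 0.34 (SE 0.076, adjusted p = 0.230) in the hippocampus. *Irf3* shares 88 exon bases with *Bcl2l12* on the opposite strand, and *Bcl2l12* had log2 fold changes of -0.22 and 0.34 with overlapping libraries in both tissues. Whether reads were counted by strand is not stated.

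*Irf9* (chr14:55603571-55610030) codes for the DNA-binding partner of the STAT factors in that complex. It was at 3.59, 3.16 and 3.78 FPKM in the Con and 5.11, 4.59 and 4.40 FPKM in the IR libraries of the cortex. The hippocampus gave 2.28, 2.52 and 3.44 FPKM in Con and 5.11, 3.91 and 5.04 FPKM in IR. Again no Con library reached an IR library. The log2 fold change was 0.34 (SE 0.088, adjusted p = 0.138) in the cortex and 0.61 (SE 0.14, adjusted p = 0.230) in the hippocampus, a ratio of means of 1.34 and 1.71. *Rnf31*, with which *Irf9* shares 123 exon bases on the same strand, was more abundant and had log2 fold changes of -0.12 (adjusted p = 0.457) and -0.019 (adjusted p = 0.910). *Stat2*, another partner in the complex, had log2 fold changes of 0.060 (adjusted p = 0.804) and 0.17 (adjusted p = 0.427), with overlapping libraries.

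*Irf7*, the factor that amplifies interferon production, was low. It was at 0.974, 0.709 and 0.568 FPKM in the Con and 1.23, 1.10 and 1.05 FPKM in the IR libraries of the cortex, without overlap (log2 fold change 0.29, SE 0.11, adjusted p = 0.286). The difference was past the unadjusted p in 3 of the 6 fits that left out a library and not without Con 2, Con 3 or IR 1. In the hippocampus the libraries overlapped, at 0.497 to 1.08 FPKM in Con and 0.523 to 1.14 FPKM in IR (adjusted p = 0.777). *Irf7* shares 45 exon bases with *Phrf1* on the opposite strand. In the cortex *Phrf1* was at 11.1 to 11.4 FPKM in Con and 11.6 to 12.3 FPKM in IR, also higher without overlap (log2 fold change 0.088, adjusted p = 0.535). The part of shared reads in the level of *Irf7* was not tested. *Irf2*, a factor that competes with the activator IRF1 at the ISRE, was at 12.2, 9.56 and 11.5 FPKM in Con and 13.7, 15.1 and 12.7 FPKM in IR in the cortex (log2 fold change 0.30, SE 0.092, adjusted p = 0.193). Its hippocampal libraries lay within 11.7 to 12.9 FPKM (log2 fold change 0.021, adjusted p = 0.900). *Irf1* was past the test in neither tissue, with log2 fold changes of -0.14 and 0.11. *Irf8*, a factor of microglia and other myeloid cells, was lower in IR without overlap in both tissues, at 1.71 to 1.95 against 1.27 to 1.67 FPKM and 1.51 to 2.22 against 1.23 to 1.45 FPKM, but not past the test (log2 fold changes -0.16 and -0.25, adjusted p = 0.499 and adjusted p = 0.380). The summed microglia genes were also lower without overlap in both tissues, but only just in cortex IR 2 (126 FPKM, against 127 FPKM in the lowest Con library).

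**Figure D2:**
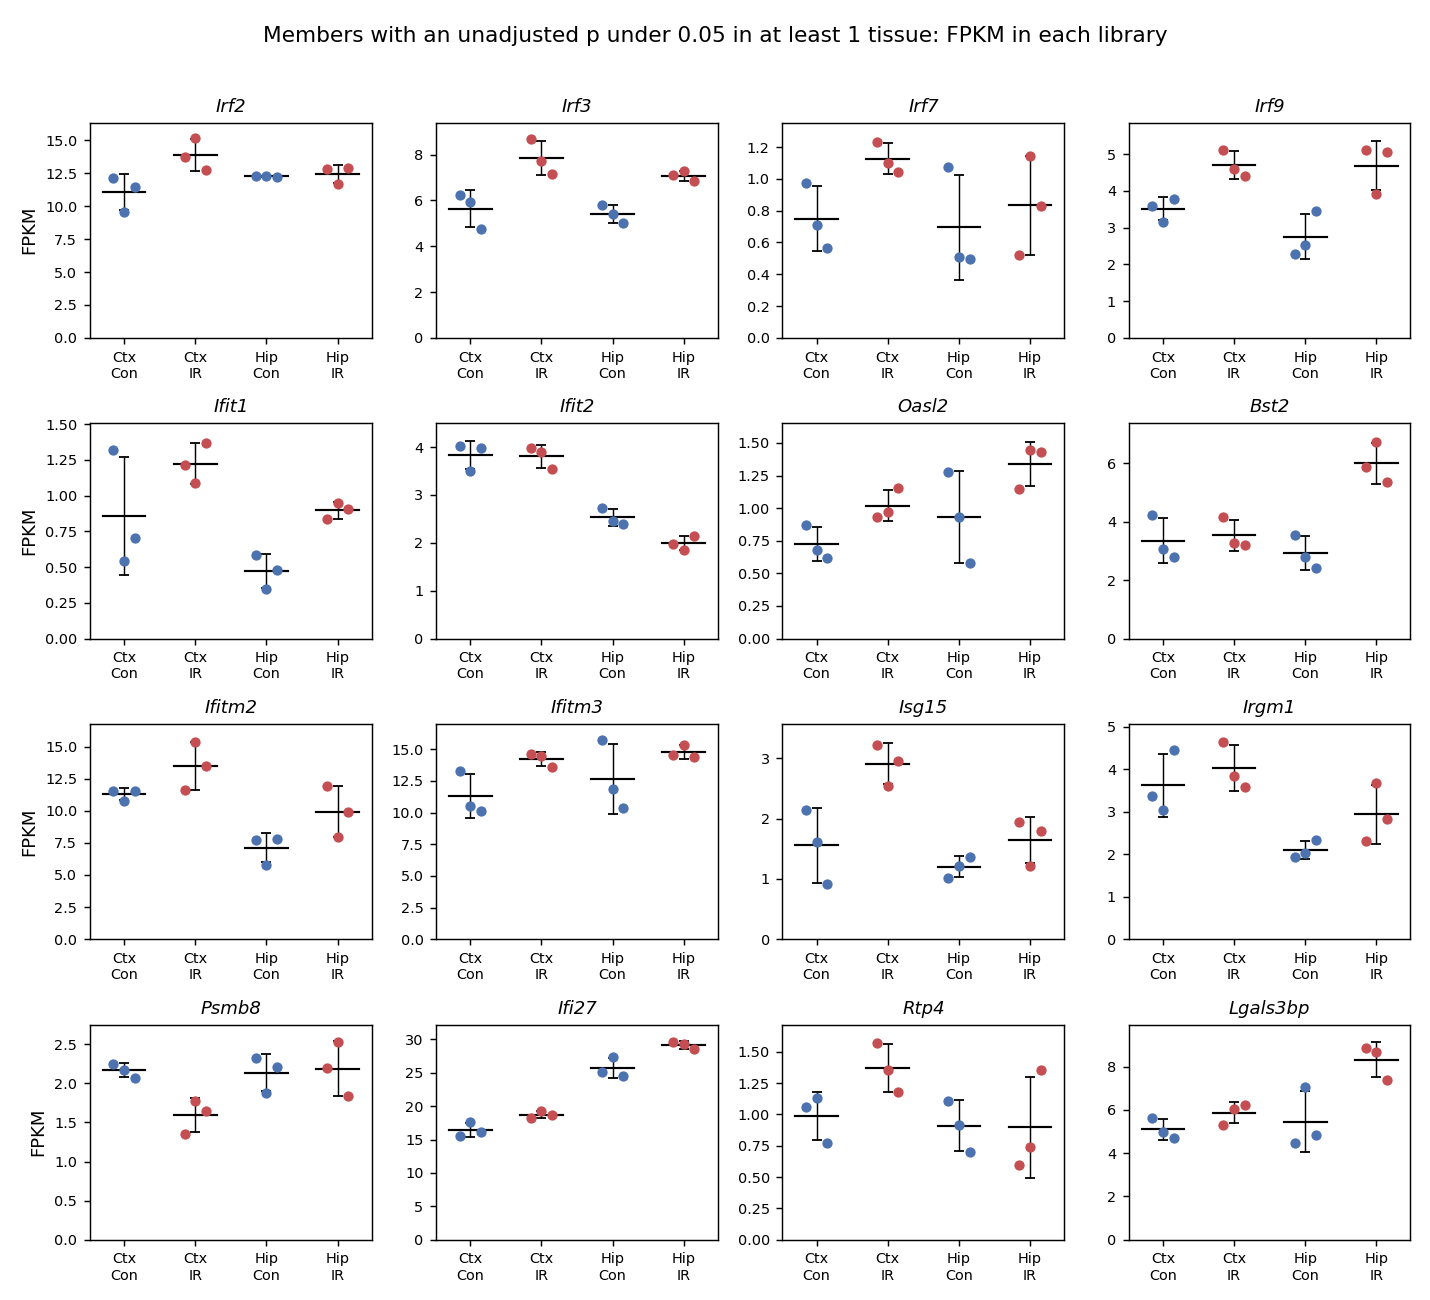
FPKM of the 16 members with an unadjusted p under 0.05 in a tissue, in each of the 12 libraries (points, library 1 to 3 from left to right) with the mean (line) and SD (bar) of each group, for cortex (Ctx) and hippocampus (Hip). The IR points of *Bst2* lie above the Con points in the hippocampus (means 6.00 and 2.92 FPKM) and among them in the cortex, and *Irf3* and *Irf9* are higher without overlap in both.

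Of the 4 membrane restriction factors, all were tested and 2 in each tissue were past the unadjusted p, all higher. *Bst2* (chr8:71534255-71537456) codes for tetherin, which holds budding virus at the cell surface. In the hippocampus it was at 3.56, 2.81 and 2.40 FPKM in Con and 5.89, 6.74 and 5.36 FPKM in IR. All IR libraries lay above the highest Con library. The ratio of means was 2.05 and the log2 fold change 0.84 (SE 0.13, 95% interval 0.55 to 1.13, adjusted p = 0.161), the largest of any tested member in either tissue. It was past the unadjusted p whichever library was left out, and the log2 fold change was 0.83 without the choroid-rich Con 2 and IR 1. In the cortex it was at 4.22, 3.06 and 2.79 FPKM in Con and 4.16, 3.27 and 3.20 FPKM in IR, where the groups overlapped (log2 fold change 0.069, adjusted p = 0.864).

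The 3 *Ifitm* genes, which block fusion of virus with endosomes, lie together at chr7:140967221-140969825, chr7:140954837-140955987 and chr7:141009586-141010770. They are close copies, so reads may have been split among them. *Ifitm2* was at 11.6, 10.8 and 11.6 FPKM in Con and 11.6, 15.3 and 13.5 FPKM in IR in the cortex (0.23 on the log2 scale, adjusted p = 0.294). Its hippocampal values were 7.71, 5.80 and 7.84 FPKM in Con and 11.9, 7.97 and 9.89 FPKM in IR (0.42, adjusted p = 0.313). The groups did not overlap, although cortex Con 1 and IR 1 both came to 11.6 FPKM when rounded, and without hippocampus Con 2 and IR 1 the hippocampal log2 fold change was 0.17 and not past the unadjusted p. The cortex difference was not past the unadjusted p without Con 2, IR 2 or IR 3, nor the hippocampus difference without Con 2, IR 1 or IR 3. *Ifitm3* was at 13.3, 10.5 and 10.1 FPKM in Con and 14.6, 14.5 and 13.6 FPKM in IR in the cortex, without overlap (log2 fold change 0.31, SE 0.093, adjusted p = 0.186). In the hippocampus Con 1 was the highest of all 6 libraries (15.7, 11.8 and 10.4 FPKM in Con and 14.6, 15.4 and 14.4 FPKM in IR), with an adjusted p of 0.445, and it was past the unadjusted p without Con 1 (log2 fold change 0.38, against 0.23 with all libraries). *Ifitm1* was past the test in neither tissue (adjusted p = 0.987 and adjusted p = 0.466).

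*Isg15* (chr4:156199424-156200818) codes for a ubiquitin-like protein that is attached to other proteins after interferon. In the cortex it was at 2.15, 1.61 and 0.912 FPKM in Con and 3.23, 2.55 and 2.96 FPKM in IR, and every IR library was above every Con library. The log2 fold change was 0.64 (SE 0.16, adjusted p = 0.135) and the ratio of means 1.87, the largest of the cortex members tested. The hippocampus gave 1.02, 1.21 and 1.37 FPKM in Con and 1.94, 1.21 and 1.79 FPKM in IR, and IR 2 fell among the Con libraries (log2 fold change 0.26, adjusted p = 0.409). Of the other genes of this group, the ubiquitin ligase genes *Trim25* and *Trim30a* were past the test in neither tissue, with log2 fold changes from 0.0067 to 0.12. *Usp18*, whose product removes ISG15, was at 0.177 to 0.710 FPKM in Con and 0.344 to 0.561 FPKM in IR in the cortex, and at 0.181 to 0.333 and 0.338 to 0.439 FPKM in the hippocampus, and was not tested.

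Of the 17 IFIT, OAS, MX and other antiviral effectors, 8 were tested in each tissue. In the cortex 1 was higher, *Oasl2*, and 7 were not past the test, and in the hippocampus *Ifit1* was higher, *Ifit2* lower and 6 past neither. *Ifit1*, whose product binds viral RNA without a proper cap, was at 0.587, 0.345 and 0.482 FPKM in Con and 0.835, 0.948 and 0.908 FPKM in IR in the hippocampus, without overlap (log2 fold change 0.37, SE 0.11, adjusted p = 0.262, ratio of means 1.90). In the cortex it was at 1.32, 0.545 and 0.703 FPKM in Con and 1.22, 1.08 and 1.37 FPKM in IR, where Con 1 lay among the IR libraries (log2 fold change 0.28, adjusted p = 0.432), and without Con 1 it was 0.45 and past the unadjusted p. *Ifit2*, its neighbour on chromosome 19, went the other way in the hippocampus, at 2.74, 2.45 and 2.40 against 1.98, 1.85 and 2.14 FPKM (log2 fold change -0.24, SE 0.089, adjusted p = 0.326). Its libraries did not overlap there, but the difference was not past the unadjusted p without Con 1, IR 1 or IR 2, and in the cortex it was -0.0090 (adjusted p = 0.975). The third gene of the cluster, *Ifit3*, had -0.080 and -0.023 (adjusted p = 0.836 and adjusted p = 0.946).

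*Oasl2*, of the oligoadenylate synthetase family that senses double-stranded RNA, was at 0.869, 0.679 and 0.621 FPKM in Con and 0.934, 0.972 and 1.15 FPKM in IR in the cortex (log2 fold change 0.23, SE 0.10, adjusted p = 0.340). The libraries did not overlap, yet it was past the unadjusted p in 1 of the 6 fits without a library, that without Con 1. In the hippocampus it was at 1.28, 0.933 and 0.582 FPKM in Con and 1.14, 1.45 and 1.43 FPKM in IR (adjusted p = 0.405). Of the untested members of this group, *Oas1a* was higher in IR without overlap in both tissues, at 0.0657 to 0.197 against 0.224 to 0.252 FPKM and 0.0317 to 0.202 against 0.220 to 0.392 FPKM, under the limit for the test. The libraries of *Mx1*, *Rsad2*, *Oas1b*, *Oas2*, *Oas3*, *Oasl1* and *Ifi44* overlapped in both tissues. Among the tested effectors, *Eif2ak2*, which codes for the kinase PKR that halts translation, lay at 0.012 and -0.053 on the log2 scale, *Samd9l* at 0.0051 and 0.010, and *Ifi35* at 0.065 and 0.24, none past the test. *Mx2* was tested in the cortex alone (0.13, adjusted p = 0.759) and *Isg20*, an RNA exonuclease, in the hippocampus alone (-0.019, adjusted p = 0.950). The 2 tested sensors, *Ifih1* (MDA5) and *Ddx58* (RIG-I), had log2 fold changes from 0.040 to 0.10 over both tissues, and neither was past the test. *Dhx58*, which codes for their relative LGP2, was at 0.300 to 0.352 FPKM in cortex Con and 0.455 to 0.621 FPKM in cortex IR without overlap, and at 0.254 to 0.415 and 0.262 to 0.598 FPKM in the hippocampus with overlap. *Zbp1*, a sensor of left-handed nucleic acid helices, was at most at 0.160 FPKM in any library.

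Of the 6 class I presentation genes, all tested in both tissues, 1 was past the unadjusted p, *Psmb8* in the cortex, which was lower, and none was past it in the hippocampus. *Psmb8* (chr17:34197721-34201454) codes for a catalytic subunit of the immunoproteasome, which cuts peptides for class I molecules. It was at 2.25, 2.17 and 2.07 FPKM in Con and 1.35, 1.78 and 1.64 FPKM in IR, without overlap (log2 fold change -0.29, SE 0.095, adjusted p = 0.221), and without IR 1 it was not past the unadjusted p. Its hippocampal values were 2.33, 1.87 and 2.21 FPKM in Con and 2.20, 2.53 and 1.84 FPKM in IR (log2 fold change 0.020). *Psmb9*, which codes for another catalytic subunit, and the peptide transporter *Tap1*, whose gene overlaps it by 212 exon bases, were past the test in neither tissue (adjusted p values from 0.417 to 0.970).

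*B2m* was higher in every IR library than in every Con library of the hippocampus, at 68.6, 64.6 and 68.1 against 72.4, 77.0 and 70.5 FPKM, with a log2 fold change of 0.13 (95% interval -0.021 to 0.27, adjusted p = 0.409). In the cortex it was at 94.6, 73.4 and 79.4 FPKM in Con and 86.9, 91.6 and 85.7 FPKM in IR (95% interval -0.087 to 0.29). In the hippocampus *H2-K1* was at 21.7, 11.5 and 12.1 FPKM in Con and 12.9, 16.2 and 14.9 FPKM in IR, and *H2-D1* at 25.3, 16.7 and 16.4 FPKM in Con and 15.8, 18.2 and 19.1 FPKM in IR. Con 1 was the highest of the 6 libraries for both genes, and the 95% intervals of their log2 fold changes were -0.49 to 0.52 and -0.47 to 0.26. Without Con 1, *H2-K1* was past the unadjusted p (log2 fold change 0.29, adjusted p = 0.479 by limma) and *H2-D1* was not, with 0.087 (adjusted p = 0.773). In the cortex the intervals were -0.23 to 0.30 for *H2-K1* and -0.18 to 0.25 for *H2-D1*. The heavy chain genes are close copies of each other and of other class I genes, so their split is uncertain.

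Hippocampus Con 1 also carried transcripts of cytotoxic lymphocytes. *Ccl5*, a chemokine of activated T and NK cells, was at 18.8 FPKM there and at 0 to 0.337 FPKM in the other 11 libraries. *Gzma*, *Nkg7*, *Klrd1* and *Gzmb* were at 0.910, 0.712, 0.278 and 0.145 FPKM in it, and *Prf1* at 0. The T cell genes *Cd3d* and *Cd3g* were at 0.314 and 0.368 FPKM, against at most 0.0675 FPKM in any other library. Con 1 did not stand out for *Cd3e*, *Cd4* and *Lck*, at 0.0476, 0.0788 and 0.647 FPKM against up to 0.0900, 0.284 and 0.828 FPKM elsewhere, and *Cd8a* was at 0.0786 against up to 0.0718 FPKM. The 6 T cell genes summed to 1.53 FPKM against 0.508 to 1.05 FPKM elsewhere. The same library was at 22.5 FPKM for *Alas2*, the heme synthesis enzyme of red cell precursors, against 0.773 to 1.86 FPKM in the other 11. The other 3 blood genes did not follow, with *Hba-a1* at 9.83 FPKM, the lowest of the 12 libraries (others 13.3 to 43.8 FPKM), and *Hba-a2* and *Hbb-bs* at 0.027 and 0.0035 FPKM. The member *Cxcl10*, a chemokine that draws such cells, was at 0.801, 0.130 and 0.240 FPKM in the hippocampus Con libraries and 0.227, 0.362 and 0.0599 FPKM in IR. Con 1 was the highest hippocampus library for *Ccl5*, *Cxcl10*, *H2-K1* and *H2-D1* alike, and the part of the lymphocyte transcripts in the class I levels was not tested.

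**Figure D3:**
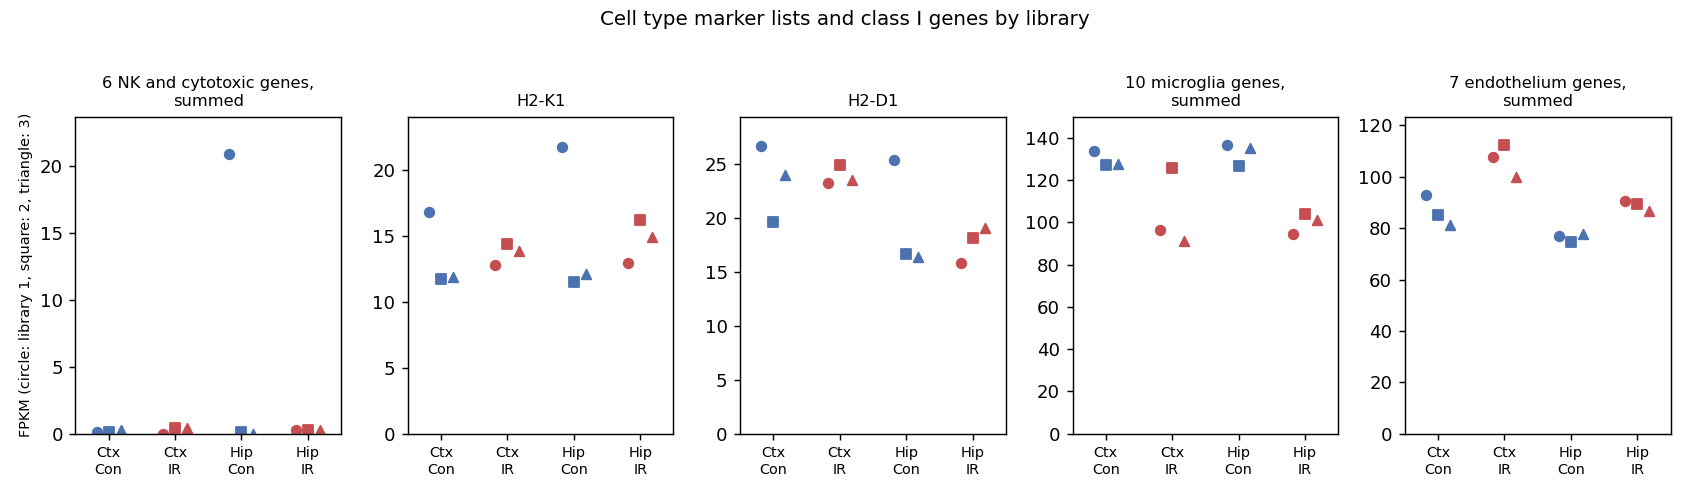
FPKM by library of the summed NK and cytotoxic genes, of *H2-K1* and *H2-D1*, and of the summed microglia and endothelium genes, with circles, squares and triangles for libraries 1, 2 and 3, Con in blue and IR in red. Hippocampus Con 1 stands apart at 20.9 FPKM in the first panel and is the highest hippocampus library for both class I genes, while microglia sums are lower and endothelium sums higher in IR.

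More broadly, 1 Con library of each tissue tended to be the highest of its group for the members. Cortex Con 1 was the highest of the 3 Con libraries for 30 of the 40 tested members (75%), against 32.4% of all tested genes. Cortex Con 2 was the lowest of the 3 for 23 of the 40 (57.5%), against 40.0% of all tested genes. Hippocampus Con 1 was the highest for 23 of 39 (59.0%), against 36.2% of all genes, including 5 of the 6 class I genes. Among the IR libraries the share that was highest was 25% to 40% in the cortex and 30.8% to 38.5% in the hippocampus, against 31.1% to 36.4% and 28.9% to 37.4% of all genes.

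**Figure D4:**
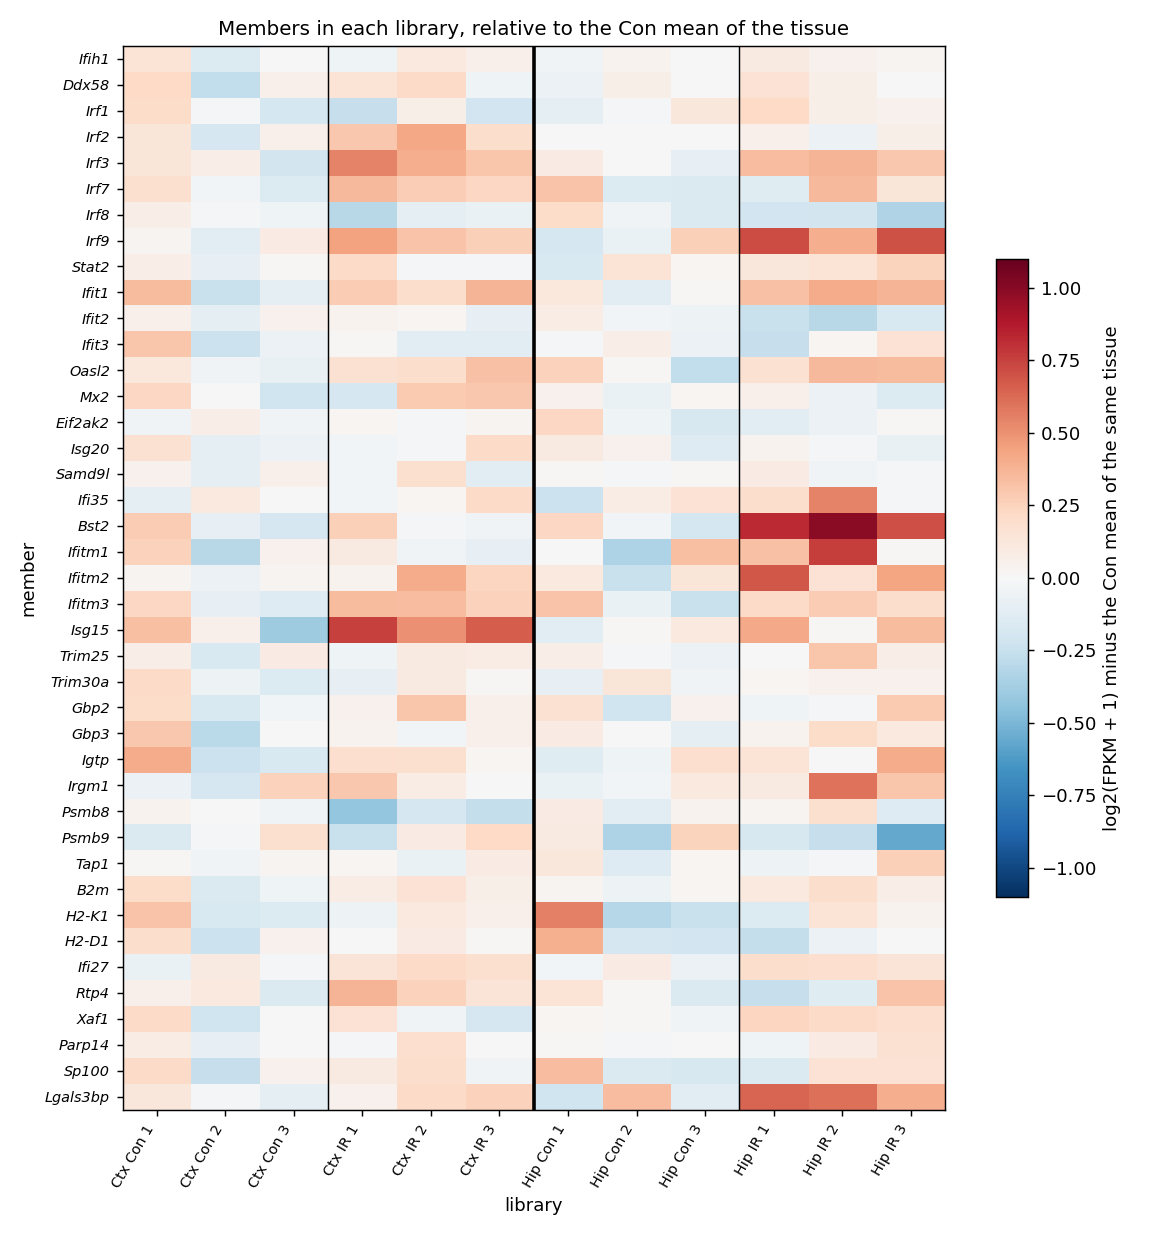
Log2(FPKM + 1) of the 41 members tested in a tissue (rows, by role) in the 12 libraries (columns), minus the Con mean of the same tissue, red above and blue below it. Cortex Con 1 is red for most rows, being the highest Con library for 30 of the 40 members tested there, and *Bst2*, *Irf9* and *Lgals3bp* are red in the 3 hippocampus IR libraries.

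Of the 4 interferon-inducible GTPases, which act on the vacuoles of intracellular pathogens, none was past the test in the cortex and 1 was in the hippocampus. *Irgm1* was at 1.93, 2.03 and 2.32 FPKM in Con and 2.31, 3.67 and 2.82 FPKM in IR there (log2 fold change 0.33, SE 0.13, adjusted p = 0.341). Con 3 lay just above IR 1, so the groups overlapped, and the call was lost without Con 1, Con 2, IR 2 or IR 3. *Gbp2*, *Gbp3* and *Igtp* had IR means above the Con means in both tissues, with log2 fold changes from 0.022 to 0.18, none past the test.

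Of the 7 other induced genes, 2 in each tissue were past the test, all higher. *Ifi27* was at 15.5, 17.7 and 16.1 FPKM in Con and 18.2, 19.2 and 18.7 FPKM in IR in the cortex. The hippocampus gave 25.2, 27.4 and 24.5 FPKM in Con and 29.6, 29.3 and 28.5 FPKM in IR. Neither tissue overlapped, and the log2 fold changes were 0.18 (SE 0.062, adjusted p = 0.256) and 0.18 (SE 0.064, adjusted p = 0.321). The unadjusted p was 0.05 or more in 2 of the 6 fits without a library in the cortex (Con 1 and IR 2) and 4 in the hippocampus (Con 1, Con 3, IR 1 and IR 2).

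*Lgals3bp*, which codes for a secreted binding partner of galectin 3, was at 4.45, 7.06 and 4.84 FPKM in Con and 8.87, 8.69 and 7.39 FPKM in IR in the hippocampus (log2 fold change 0.55, SE 0.15, adjusted p = 0.256). The IR libraries were all above the Con libraries, of which Con 2 was the highest. In the cortex the libraries overlapped, at 4.70 to 5.62 and 5.31 to 6.25 FPKM (log2 fold change 0.17, adjusted p = 0.420). *Rtp4*, a chaperone of receptors on the cell surface, was at 1.06, 1.13 and 0.769 FPKM in Con and 1.57, 1.36 and 1.18 FPKM in IR in the cortex (0.26 on the log2 scale, adjusted p = 0.333), without overlap, and lost the call without Con 1, Con 3, IR 1 or IR 2. Its hippocampal log2 fold change was -0.025. *Xaf1*, a proapoptotic gene, was higher in IR without overlap in the hippocampus, at 0.562 to 0.627 against 0.826 to 0.888 FPKM, and just missed the unadjusted threshold (adjusted p = 0.362). *Sp100* was past the test in neither tissue, and *Parp14* was tested in the cortex alone (adjusted p = 0.867).

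The 4 members *Irf3*, *Irf9*, *Ifitm2* and *Ifi27* were past the unadjusted p in both tissues, all higher in IR, where 1.6% of the 13649 genes tested in both were past it and higher in both. A further 7 members were past it in the cortex alone (11.1% of these genes) and 5 in the hippocampus alone (11.1%), 16 in all (25.2%). Of the 38 members tested in both, 27 had a higher IR mean in both (27.5% of all genes), 3 a lower one in both (29.7%), and 8 differed in sign (42.8%). The difference between the tissues itself was tested in a fit of all 12 libraries. For it, 3 members were past an unadjusted p, against 10.4% of all 14459 genes, and none past an adjusted p, against 0.083%. The log2 fold change of *Bst2* was larger in the hippocampus by 0.77 (SE 0.20, 95% interval 0.35 to 1.20, adjusted p = 0.224 by limma). That of *Irf2* was lower there by a difference of -0.28 (adjusted p = 0.443), and that of *Psmb8* higher by 0.31 (adjusted p = 0.478). For *Irf3* the difference was -0.081, with an interval of -0.37 to 0.21, and for *Isg15* it was -0.38, with -0.88 to 0.11, so being called in 1 tissue does not show *Isg15* to differ between them.

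Between the regions of sham mice, 9 of the 41 members tested over all 12 libraries differed at an adjusted p under 0.05, where 44.2% of all 14459 genes did. Of these, 8 were higher in the cortex (20.6% of all genes) and 1 in the hippocampus (23.6% of all genes). *Ifi27* was the higher in the hippocampus, by a log2 difference of 0.61 (25.7 ± 1.48 against 16.4 ± 1.09 FPKM, SD, adjusted p = 2.92e-06 by limma). *Igtp* was 2.59 ± 0.933 FPKM in the cortex and 0.945 ± 0.231 FPKM in the hippocampus (log2 difference -0.86, adjusted p = 0.000740), and the related *Irgm1* 3.62 ± 0.741 and 2.09 ± 0.202 FPKM (-0.57, adjusted p = 0.00449). *Ifitm2*, *Xaf1*, *Ifit2*, *Ifit3*, *Ifih1* and *B2m* were also higher in the cortex, by -0.29 to -0.63 on the log2 scale as hippocampus minus cortex. Cortex and hippocampus files carry different column endings, so region and a possible processing run cannot be told apart.

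A further 63 genes of the pathway that are not members were examined, from ligands, receptors and sensors to other induced and class I genes, of which the test took 49 from the cortex and 53 from the hippocampus. In the cortex 4 of the 49 were higher and 0 lower at an unadjusted p, against 8.16% and 5.94% of all genes, so the share that was higher was about that of all genes. In the hippocampus 7 of the 53 were higher and 3 lower, against 7.06% and 6.89%. Without Con 2 and IR 1 the 10 past the unadjusted p became 4, where 5.59% of all genes were past it. Which genes were past it in that fit is not given, and the hippocampal values below come from all 6 libraries. Of the 3 lower, *Tlr9* passed the filter through its Con libraries alone, so its difference is not given. None had an adjusted p under 0.05 in either tissue. The receptor genes *Ifnar1* and *Ifnar2* were past the test in neither tissue, with *Ifnar1* at 7.94 to 9.17 FPKM over the cortex and 7.83 to 8.23 FPKM over the hippocampus libraries. *Tyk2*, a receptor kinase, was higher in both, at 3.79 to 4.35 against 4.46 to 4.81 FPKM and 4.98 to 5.05 against 5.18 to 6.84 FPKM (log2 fold changes 0.19 and 0.22, adjusted p = 0.325 and adjusted p = 0.358). *Jak2*, the kinase of the interferon gamma receptor, was higher in the cortex (0.26, adjusted p = 0.118), as was the phosphatase gene *Ptpn2* (0.22, adjusted p = 0.327). The groups of *Ptpn2* overlapped, at 7.09 to 8.60 FPKM in Con and 8.57 to 10.7 FPKM in IR.

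*Ifngr1*, a chain of the interferon gamma receptor, was lower in the hippocampus, at 6.08 to 7.05 against 4.42 to 5.68 FPKM (-0.32, adjusted p = 0.291). So was *Tmem173*, which codes for the DNA sensing adaptor STING, at 1.37 to 1.63 against 0.644 to 1.08 FPKM (-0.39, adjusted p = 0.272). Among further induced genes, *Ly6e* was higher in both tissues, at 61.2 to 80.5 against 90.7 to 106 FPKM in the hippocampus (log2 fold changes 0.19 and 0.46, adjusted p = 0.308 and adjusted p = 0.230). *Ifi203*, of the AIM2-like family of DNA binding proteins, was at 1.33 to 1.63 FPKM in hippocampus Con and 2.30 to 2.57 FPKM in IR (0.49, adjusted p = 0.214). *Adar* and *Pml* were also higher there without overlap (0.24 and 0.32). The class I gene *H2-Q4* was at 4.41, 2.39 and 5.78 FPKM in hippocampus Con and 5.60, 5.96 and 8.50 FPKM in IR, where the groups overlapped (0.60, adjusted p = 0.350). Of the 10 other class I genes tested in each tissue, *H2-Q4* in the hippocampus was the only 1 past the unadjusted p.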

How the data were processed

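Total tissue RNA of the cortex and hippocampus was made into strand-specific poly(A) libraries and sequenced. The labels and the study's methods name different RNA extraction reagents. The deposited values are FPKM per gene, made by the authors by trimming reads, removing contaminants, aligning with TopHat to mm10 (per the submitters' processing notes), estimating expression with Cufflinks and normalizing between libraries by a geometric mean. The annotation and the use of strand in counting are not given in the sources used here. FPKM keeps no read number, so no counting interval is given, and with 3 libraries a group the spread is estimated largely from all genes.

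Genes that reached 0.5 FPKM in 3 or more of a tissue's 6 libraries were fitted with limma 3.58.1 in R 4.3.3 (trended, robust prior) on log2(FPKM + 1), each tissue by itself, with two-sided p values and Benjamini-Hochberg adjustment over all genes of the fit. A fold change on this scale understates the change of low genes, so the ratio of mean FPKM is given for some. The difference between tissues and the contrast of sham tissues came from a fit of all 12 libraries. A member's libraries do not overlap when every IR value lies on 1 side of every Con value. The 53 members, their role groups and the pathway and marker lists were chosen with earlier results of these data known. Library values and statistics are given for members with an unadjusted p under 0.05, and the other members by range, count or fold change. Other members shown by library were chosen after their values were seen. The values of 1 pathway gene are not reported here. No read counts were recovered. The fit was tested on simulated data. Exon overlaps and gene positions come from GENCODE M21 on GRCm38, promoters from RefSeq, matched by symbol for 43 of 53 members. Alternatives were the pseudocount, the filter, quantile normalization, the prior, the ratio of means, a replicate block, 1 fit of all libraries and leaving out each library. Leaving out the libraries rich in choroid plexus genes was added after the data were seen. Python 3.11.15 with pandas 2.3.3 and matplotlib 3.10.9 was used for tables and plots.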

Additional observations from a re-analysis of the deposited data

Results flagged for a closer look

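Results were set apart here where the difference between IR and Con itself differed between the tissues at an unadjusted p under 0.05 (limma, 12 libraries). The groups hold 3 libraries each, too few for a test of single libraries. In *Bst2* the log2 fold change was larger in the hippocampus than in the cortex by 0.77 (95% interval 0.35 to 1.20, adjusted p = 0.224), with all 3 IR libraries above all 3 Con libraries in the hippocampus and overlapping groups in the cortex. In *Irf2* the difference was -0.28 (95% interval -0.54 to -0.027, adjusted p = 0.443), with the higher IR libraries in the cortex. In *Psmb8* it was 0.31 (95% interval 0.0016 to 0.62, adjusted p = 0.478), with the lower IR libraries in the cortex. None of the 3 was past the adjusted threshold, and the share of all genes past the unadjusted one was 10.4%.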

How the results depend on the processing

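No alternative reversed the direction of any of the 20 gene and tissue results past the unadjusted p, over 284 values, and 41 of these values were not under 0.05. Those under 0.05 in every alternative that tested them were *Irf3*, *Isg15*, *Irf9*, *Ifitm3* and *Irf2* in the cortex and *Bst2*, *Irf3*, *Irf9*, *Lgals3bp* and *Ifit1* in the hippocampus, where a minimum of 1 FPKM in each library left untested cortex *Isg15* and hippocampus *Ifit1*. Without hippocampus Con 1, *Ifit1* passed the filter of 0.5 FPKM through its IR libraries alone. That fit gives no support for *Ifit1*, although the counts below include it. In the cortex, 11 of 40 members were past the unadjusted p (10 higher), against 14.1% of all genes. With at least 1 FPKM in every library these became 7 of the 25 tested (6 higher), against 14.7%. In the fit of all 12 libraries they became 7 of 40 (6 higher), against 11.9%. The count meeting the fold of 1.5 went from 1 to 2 by the ratio of means and to 0 under the filter of 1 FPKM, and the 33 of 40 members higher in IR to 18 of the 25 it tested (51.7% of all genes). In the hippocampus, the single lower member became 2 without the trended and robust prior, where the share of all genes is not given. The count was also 2 in the fit of all 12 libraries. There 19.2% of all genes were past the unadjusted p in the hippocampus, against 13.9% in the main fit. In that fit of 12 libraries 2 members, *Bst2* and *Irf9*, had an adjusted p under 0.05 (0.527% of all genes). The 2 members meeting the fold became 4 by the ratio of means and 4 with a pseudocount of 0.1, and the 31 of 39 higher in IR became 19 of the 24 tested with at least 1 FPKM in every library (46.6% of all genes). Without the choroid-rich Con 2 and IR 1, the members without overlap went from 11 to 20, as fewer libraries must be separated (37% of all genes in that fit), and the other pathway genes past the unadjusted p from 10 to 4. The 8 members higher in the cortex of sham mice became 5 under the stricter filter. Except where fewer libraries or genes entered, the cause was not tested.

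Leaving out each library in turn gave 7 to 14 cortex members past the unadjusted p (7 without IR 2), 6 to 13 of them higher and 0 to 1 lower (0 without IR 1), with 0 to 1 past the adjusted p (1 without Con 1) and 0 to 1 meeting the fold (0 without Con 3 or IR 1). The cortex members without overlap numbered 12 to 19 (19 without Con 1), those higher in IR 23 to 33, and their median log2 fold change was 0.013 (without Con 2) to 0.15 (without Con 1). The other pathway genes past the unadjusted p numbered 2 (without Con 2) to 7 (without Con 1). Over all genes, 8.69% to 15.1% were past the unadjusted p in these fits, 27.1% to 34.3% were without overlap and 50.2% to 51.3% were higher in IR. In the hippocampus the same fits gave 6 to 10 members, 6 to 9 higher and 0 to 2 lower (0 without Con 1, IR 1 or IR 2, and 2 without Con 2 or Con 3), 0 to 2 past the adjusted p (2 without Con 3, against 6.33% of all genes) and 1 to 2 meeting the fold (1 without Con 1 or IR 1). Those without overlap numbered 13 to 18 (18 without Con 1 and 17 without Con 3), those higher in IR 26 to 33, the median was 0.090 to 0.16, and the other pathway genes numbered 7 to 14. Over all genes, 8.35% (without IR 1) to 26% (without Con 3) were past the unadjusted p, 27.2% to 44.6% were without overlap and 46.5% to 49.4% were higher in IR. Members past the unadjusted p for the difference between tissues numbered 2 to 5 (5 without hippocampus IR 3), and members with an adjusted p under 0.05 between the sham tissues 1 to 3 higher in the hippocampus (3 without cortex Con 1) and 8 to 11 in the cortex.

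Deviations from the group mean were correlated between libraries of the same number. The correlations were -0.119 to 0.068 between Con and IR of the cortex and -0.377 to -0.0876 in the hippocampus. Between cortex and hippocampus they were -0.040 to 0.181 in Con and -0.054 to 0.105 in IR, where different numbers gave -0.229 to 0.181 and -0.215 to 0.193. With 3 libraries a group this cannot show whether a number is 1 mouse in both tissues. The numbers were not taken as pairs. With the replicate number as a block, 10 cortex members (9 higher, 1 lower) and 7 hippocampus members (7 higher, 0 lower) were past the unadjusted p (13.3% and 10.1% of all genes), without *Oasl2* in the cortex and *Ifi27* and *Ifit2* in the hippocampus, and 2 were past it for the difference between tissues (10.4%). Between the sham tissues, 1 member was higher in the hippocampus and 9 in the cortex at an adjusted p under 0.05, where 34.8% of all genes differed under the block. The number of libraries and the low level of many effectors limit what could be tested.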
